A study of Arabidopsis thaliana with 15 samples.

Results

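Flavonol glycosylation genes are described here as 4 genes of Arabidopsis thaliana, taken by locus from a table of raw read counts that holds 33602 genes. They are UGT78D1 (AT1G30530), UGT78D2 (AT5G17050), UGT89C1 (AT1G06000) and RHM1 (AT1G78570). All 4 had enough reads to be tested, among 20833 genes tested. RNA was sequenced from whole seedlings that were 4 days old, with 30 seedlings pooled in each sample, in 5 groups of 3 libraries. The mutant uvr8-6, defective in the photoreceptor that senses UV-B, was sampled after 6 h of supplementary narrowband UV-B and in low white light. The double mutant pif4-101 pif5-1, with lesions in PIF4 and PIF5, genes of bHLH factors that promote growth, was sampled in white light. The Col-0 wild type was sampled after the same UV-B treatment and in white light. All seedlings had germinated under continuous white light of 3.6 µmol m-2 s-1 on a medium with sucrose. The replicates came from separate plates, according to the design text of the series, and each mutant is represented by 1 line.

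Flavonols are phenylpropanoid compounds that absorb UV-B and collect in epidermal cells, and in Arabidopsis the aglycones kaempferol and quercetin are stored as glycosides. UGT78D1 adds rhamnose and UGT78D2 adds glucose at the 3-O position of the flavonol, and UGT78D2 also glucosylates anthocyanidins. UGT89C1 adds rhamnose at the 7-O position. RHM1 is a rhamnose synthase that converts UDP-glucose to UDP-rhamnose, the sugar donor of both rhamnosyltransferases. UV-B activates UVR8, which acts through the bZIP factor HY5 and through MYB factors of the flavonol pathway such as MYB12.

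The libraries held 19271180 to 30406689 counted reads, and levels are given as CPM, read counts relative to the library total after TMM scaling. UVR8 stood at 15.4 ± 0.5 CPM under UV-B and 17.0 ± 2.8 CPM in white light in uvr8-6, against 90.0 ± 7.4 and 99.0 ± 14.1 CPM in wild type (SD, n = 3). PIF5 stood at 5.0 ± 0.4 CPM in pif4-101 pif5-1, against 108 ± 30 CPM in wild type in white light. PIF4 stood at 87.4 ± 11 CPM in the double mutant and 127 ± 57 CPM in wild type, a log2 fold change of -0.53 ± 0.39 that edgeR did not call (adjusted p = 0.489), so the level of PIF4 does not check that label. It was called as lower without the high-FRO5 libraries described next, at -0.84 ± 0.13. Photosynthetic and root markers were abundant in every group, and summed root markers held 3238 to 10585 CPM. The summed photosynthetic markers reached 32766 to 42926 CPM in pif4-101 pif5-1, above all other libraries, which held 15566 to 32120 CPM. Summed seed storage markers were at most 13.5 CPM except in 1 uvr8-6 UV-B library with 59.0 CPM, and summed flower markers were at most 1.43 CPM. A set of 5 libraries stood apart by a high level of the ferric reductase gene FRO5, at 20.8 to 78.7 CPM against at most 1.2 CPM elsewhere. They are replicates 1 and 3 of uvr8-6 under UV-B, replicate 2 of uvr8-6 in white light, replicate 1 of wild type under UV-B and replicate 2 of wild type in white light. FRO5 has a close copy, FRO4, beside it, so its own reads are less certain. Results that rest on these libraries are given with and without them.

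In the RefSeq annotation of TAIR10.1, UGT78D1 lies at chr1:10814612-10816615 on the plus strand with 2 exons and 1362 coding bases. UGT78D2 lies at chr5:5607788-5609589 on the minus strand with 2 exons and 1383 coding bases, next to 2 further UGT78D family genes, AT5G17040 and UGT78D3 (AT5G17030), on the same strand. UGT89C1 is a gene of 1 exon at chr1:1820308-1821894 on the minus strand with 1308 coding bases. RHM1 lies at chr1:29549540-29552438 on the plus strand with 3 exons and 2010 coding bases. In an ungapped blastn search that kept only alignments without a mismatch, the longest match of the 4 genes elsewhere in the genome was 24 bases. Exact runs inside alignments that hold a mismatch were dropped, so this value does not bound the longest stretch shared with a related gene. UGT89C1 is overlapped by the antisense lncRNA gene AT1G06002, which had 80 to 158 reads per library, and RHM1 overlaps at its end with the antisense gene AT1G78580, which had 606 to 1657 reads. RHM1 is also overlapped by the antisense lncRNA gene AT1G09823, whose reads are not given here. Whether reads were counted by strand is not given in the sources used here, so reads from these stretches may be assigned to either gene.

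Because the 4 genes moved together under UV-B, the sequence before each was searched for short motifs on both strands. The motifs were CACGTG, the ACGT core that lies within it and that bZIP factors bind, CACATG, which PIF factors bind, and 3 AC elements, which MYB factors of the phenylpropanoid pathway bind. The AC elements were ACCTACC, as a second form ACCAACC, and as the third form ACCTAAC. In the 250 bases before the annotated start UGT89C1 held 1 ACCTACC, 193 to 187 bases upstream, and 2 ACGT cores, and the other 3 genes held none of these letters. The window of UGT89C1, chr1:1821895-1822144 on the minus strand of TAIR10.1, is shown 5′ to 3′ with the AC element and both ACGT cores in capitals:
UGT89C1: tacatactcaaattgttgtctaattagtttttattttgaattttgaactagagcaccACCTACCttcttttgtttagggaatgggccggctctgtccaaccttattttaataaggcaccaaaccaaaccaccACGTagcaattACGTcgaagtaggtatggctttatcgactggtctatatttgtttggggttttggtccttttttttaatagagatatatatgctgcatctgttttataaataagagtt
Among 27443 windows of 250 bases before protein-coding genes, 1.16% held ACCTACC, 6.12% held any of the 3 AC elements and 44.1% held ACGT. A second window of 500 bases before the coding start, chosen after the first result was seen, takes in the annotated 5′ leader. There 3 of the 4 genes held an AC element, where 11.6% of all such windows did. The element was ACCTACC in UGT78D1 and UGT89C1, held by 2.16% of such windows, and ACCAACC in UGT78D2, held by 5.47%. The 29 bases around each match are shown on the strand of the gene, 5′ to 3′, with the element in capitals:
UGT78D1: cttcaagtggtACCTACCactgtccagag
UGT78D2: aagagatcggtACCAACCacgaaacacga
UGT89C1: actagagcaccACCTACCttcttttgttt
The match of UGT78D1 (chr1:10814774-10814802) lies 132 to 126 bases before the coding start, within the annotated leader, that of UGT78D2 (chr5:5609519-5609547) 144 to 138 bases before it, also within the leader, and that of UGT89C1 (chr1:1822070-1822098) 285 to 279 bases before it, upstream of the leader. RHM1 held no AC element in either window and 1 ACGT core in the longer one. The longer window of RHM1 lies wholly within its annotated leader, which spans 570 bases of the genome. Flanking bases differ between the genes. ACCTACC also stands before 3 of the flavonol enzyme genes and before AT5G17040 and UGT78D3, the neighbours of UGT78D2, shown for comparison:
CHS: ccgtccatctaACCTACCacactctcatc
CHI: taactattgctACCTACCcttctctcttc
F3H: agtagtaccgtGGTAGGTagctagcgacc
AT5G17040: ccacgaattttACCTACCaacaatattaa
UGT78D3: ccacaaattctACCTACCaaaacaatata
In F3H the match is on the opposite strand, so the capitals read as its reverse complement. FLS1 and the flavonoid 3′-hydroxylase gene held none of the 3 AC elements in the longer window. A match is a run of letters, and binding was not measured in these data.

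**Figure D1:**
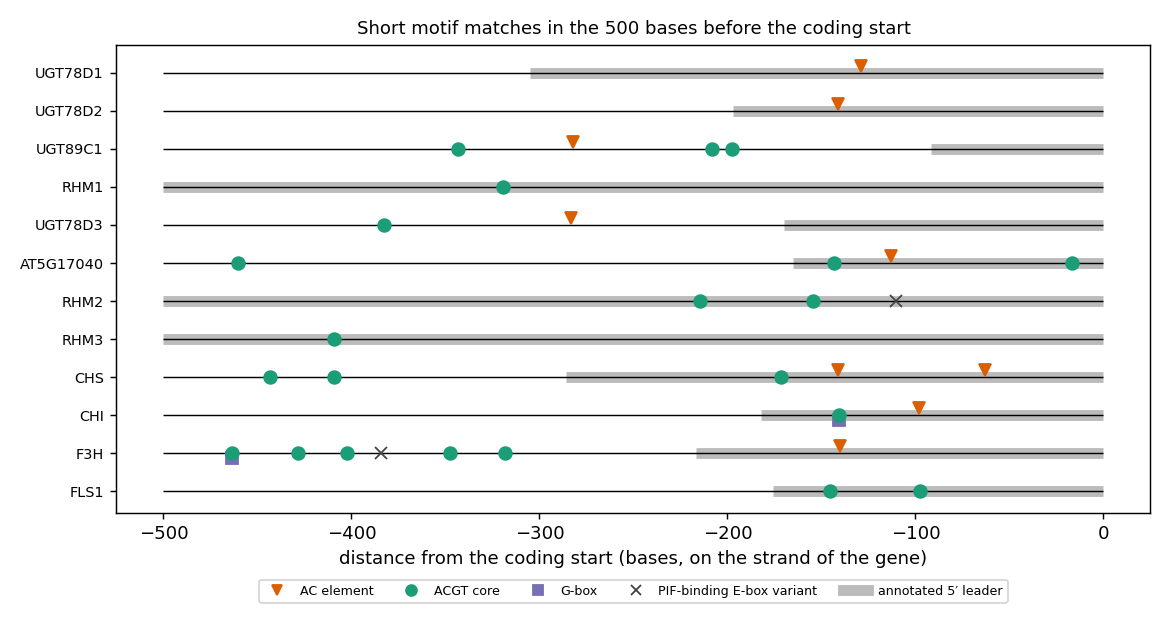
Positions of motif matches in the 500 bases before the coding start of the 4 genes and of related genes; the horizontal axis is the distance from the coding start in bases, marks are the matches by motif and grey bars are annotated 5′ leaders. AC elements (triangles) stand before UGT78D1, UGT78D2 and UGT89C1, and RHM1 has 1 ACGT core and no AC element.

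The first comparison asked which genes respond to UV-B in wild type. All 4 genes rose, between 5.77-fold and 11.5-fold, and no library of the treated group overlapped with a library of the untreated group. At an adjusted p under 0.05, edgeR's quasi-likelihood test called 27.4% of all genes tested in this comparison, 16.1% as higher and 11.3% as lower, and 22.9% were higher without overlap. The members were chosen with the results for this pathway known, so their count is a description. In bulk RNA of whole seedlings, a change in the number of cells that express a gene and a change in RNA per cell cannot be told apart.

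UGT78D1, the 3-O-rhamnosyltransferase gene, had 168, 112 and 101 CPM in wild type under UV-B, against 20.2, 27.8 and 18.3 CPM in white light. The lowest treated library lay well above the highest untreated one, and replicate 1 was the highest of the treated libraries. The log2 fold change was 2.53 ± 0.24 (SE), with a 95% interval of 2.00 to 3.05, and the quasi-likelihood test of edgeR gave a Benjamini-Hochberg adjusted p of 3.4e-06. Its coefficient of variation under UV-B, 28.1%, was the widest of the 4 genes in that group.

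UGT78D2, the 3-O-glucosyltransferase gene, had 186, 151 and 168 CPM under UV-B, against 21.0, 27.5 and 19.3 CPM in white light. The treated libraries lay close together and apart from the untreated ones. The log2 fold change was 2.90 ± 0.14 (edgeR adjusted p = 3.5e-09), with an interval of 2.60 to 3.20.

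UGT89C1, the 7-O-rhamnosyltransferase gene, had 247, 172 and 188 CPM under UV-B, against 16.5, 21.8 and 14.7 CPM in white light. It had the lowest mean level of the 4 genes in white light, 17.7 ± 3.7 CPM, and the steepest response, with a log2 fold change of 3.52 ± 0.18 (edgeR adjusted p = 8.4e-09). Its interval, 3.12 to 3.91, lies above those of UGT78D1 and RHM1 and overlaps that of UGT78D2, and differences between genes were not tested. It ranked 56th of 20833 genes by fold change, and UGT78D2, RHM1 and UGT78D1 ranked 103rd, 121st and 153rd.

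RHM1, the UDP-rhamnose synthase gene, had 728, 596 and 571 CPM under UV-B, against 90.7, 107 and 90.9 CPM in white light. Its libraries were separated by a wide gap, and its log2 fold change was 2.71 ± 0.12, with an interval of 2.46 to 2.97 (edgeR adjusted p = 1.4e-09). Per kilobase of mRNA, RHM1 was the most abundant of the 4 genes in both conditions, with 246 ± 33 CPM per kb under UV-B and 37.4 ± 3.7 CPM per kb in white light (SD, n = 3). The 3 glycosyltransferase genes had 11.1 to 13.9 CPM per kb in white light. Under UV-B they spread out on the same scale, to 66.6 ± 18.7 CPM per kb for UGT78D1, 104 ± 11 for UGT78D2 and 127 ± 25 for UGT89C1.

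**Figure D2:**
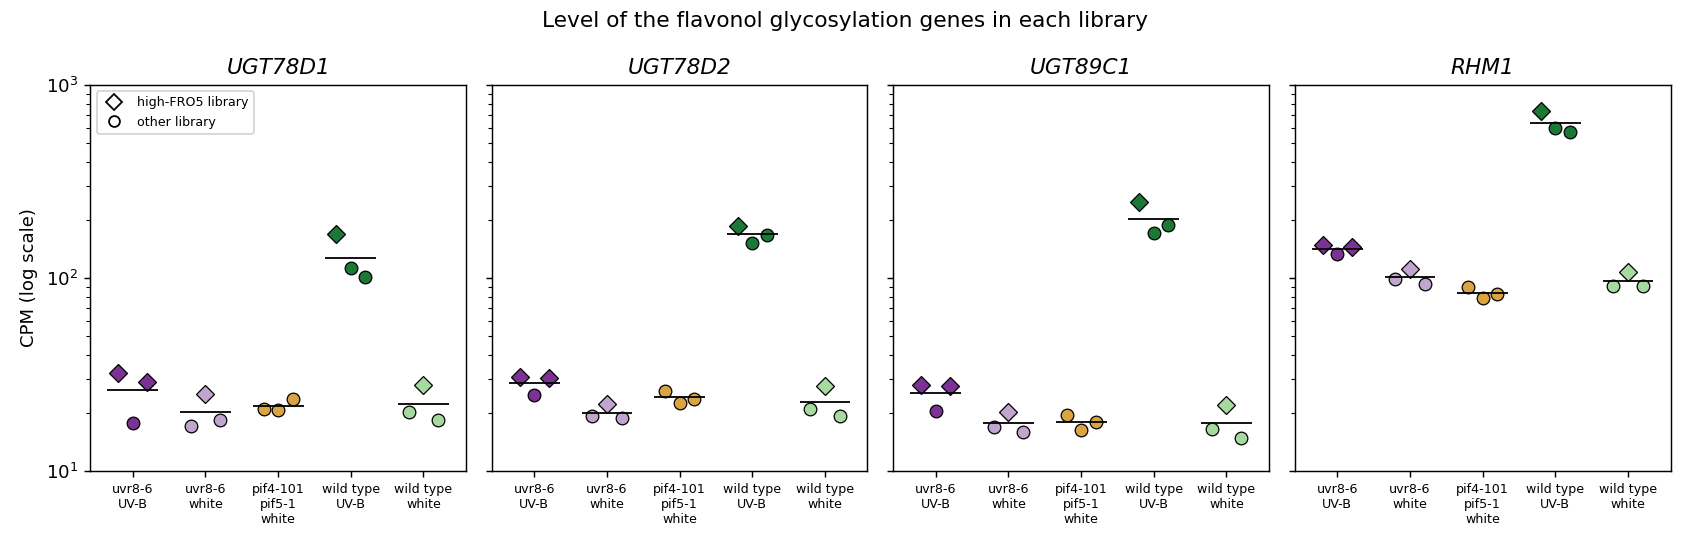
Level of each gene in each library in CPM on a logarithmic axis, with 1 panel per gene; points are the 3 libraries of a group, bars are group means and diamonds mark the 5 libraries with high FRO5. Wild-type UV-B libraries lie above all others in every panel, from 101 CPM upward for UGT78D1 and from 571 CPM upward for RHM1.

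The second comparison asked whether the response needs the photoreceptor. In uvr8-6 none of the 4 genes was called between UV-B and white light by edgeR's quasi-likelihood test, which called 1.12% of all genes there, and 3 of them had an unadjusted p under 0.05. All 4 had higher means under UV-B, by 1.29-fold to 1.43-fold, and the libraries of UGT78D2, UGT89C1 and RHM1 did not overlap, as was the case in the higher direction for 9.83% of all genes.

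UGT78D1 had 32.1, 17.6 and 28.8 CPM in uvr8-6 under UV-B, against 17.1, 25.0 and 18.3 CPM in uvr8-6 in white light. These libraries overlapped, and the log2 fold change was 0.37 ± 0.24 (edgeR adjusted p = 0.555). UGT78D2 had 30.5, 24.7 and 30.3 CPM under UV-B, against 19.2, 22.1 and 18.7 CPM in white light, with a log2 fold change of 0.51 ± 0.13 (edgeR adjusted p = 0.0921). UGT89C1 had 27.9, 20.3 and 27.7 CPM under UV-B in uvr8-6, against 16.8, 20.2 and 15.9 CPM in white light. The lowest treated library of UGT89C1 and its highest untreated library nearly met, and its log2 fold change was 0.52 ± 0.17 (edgeR adjusted p = 0.201). RHM1 had 148, 133 and 144 CPM under UV-B, against 98.7, 111 and 92.9 CPM in white light. Its log2 fold change of 0.49 ± 0.11 missed the threshold narrowly (edgeR adjusted p = 0.0537), and its call depends on the analysis: DESeq2 gave an adjusted p of 0.00299 and limma-voom 0.0389.

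The libraries with high FRO5 move with these small differences. All 4 genes were higher in the high-FRO5 libraries than in the other libraries of the same group, in each of the 4 groups that hold such libraries, as were 7.28% of all genes. Of the UV-B libraries of uvr8-6, replicates 1 and 3 are of this kind, against replicate 2 alone of the white-light libraries. Without the 5 libraries, which leaves 1 library in the uvr8-6 UV-B group that is assumed to vary like the others, the log2 fold change in uvr8-6 was -0.01 ± 0.15 for UGT78D1, 0.39 ± 0.14 for UGT78D2, 0.32 ± 0.15 for UGT89C1 and 0.48 ± 0.14 for RHM1, and edgeR called none. In wild type the same removal left 2.46 ± 0.12, 2.98 ± 0.12, 3.52 ± 0.13 and 2.68 ± 0.12 for the same genes, all called. What sets these libraries apart was not tested.

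The UV-B response differed between the genotypes for all 4 genes when the difference itself was tested. As uvr8-6 minus wild type on the log2 scale, it was -2.16 ± 0.34 for UGT78D1, -2.39 ± 0.19 for UGT78D2, -3.00 ± 0.25 for UGT89C1 and -2.23 ± 0.16 for RHM1. The adjusted p-values of edgeR's quasi-likelihood test were 0.0012, 3.2e-06, 4.7e-06 and 1.5e-06 in that order, and 6.6% of all genes were called in this comparison, 4.88% as lower. Without the high-FRO5 libraries the differences were -2.47, -2.59, -3.20 and -2.20, again called for all 4. Under UV-B, uvr8-6 had lower levels than wild type of every member, with log2 fold changes of -2.28 for UGT78D1, -2.56 for UGT78D2, -3.00 for UGT89C1 and -2.16 for RHM1. These 4 were called by edgeR and their libraries did not overlap. In that comparison 23.5% of all genes were called, 14.4% as lower, and 23.6% were lower without overlap. Upper quartile scaling turned the share of calls that were higher to 57.9%, against 39.0%, in that comparison, and to 43.9%, against 26.1%, in the difference of responses. The last 2 comparisons share the UV-B libraries of both genotypes.

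**Figure D3:**
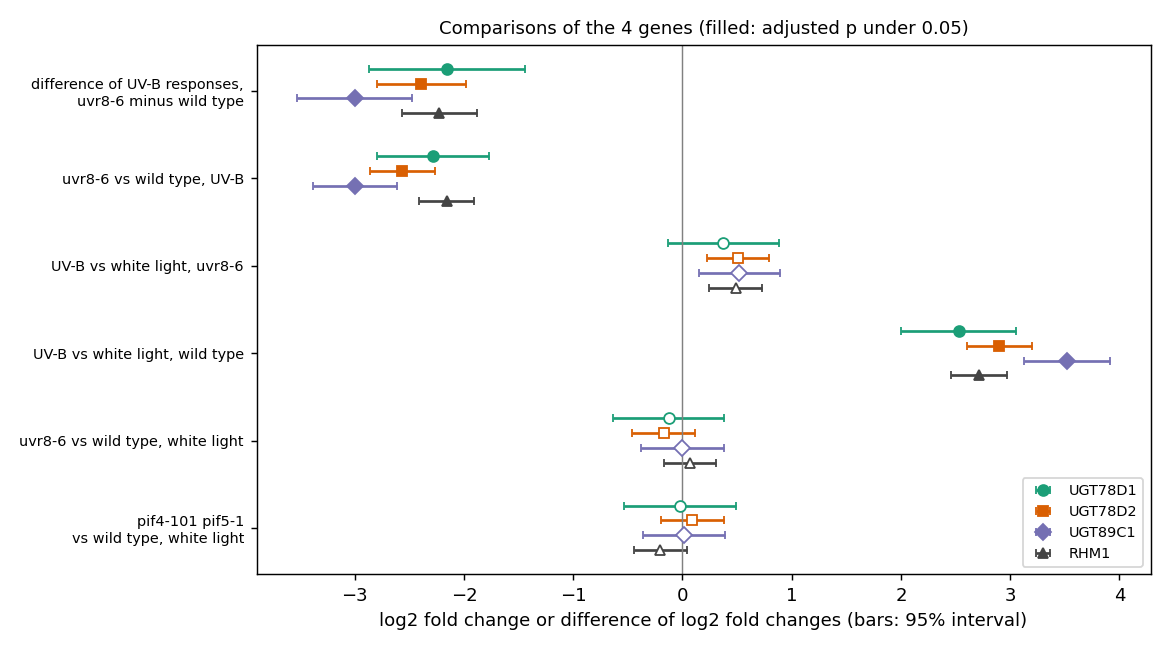
Log2 fold changes of the 4 genes in 5 comparisons and the difference of the UV-B responses, with 95% intervals as bars; filled symbols have an edgeR adjusted p under 0.05. All 4 symbols lie between -3.00 and -2.16 for the difference of responses, and none is filled in uvr8-6 or in the white-light comparisons.

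In white light, the question was whether the mutants differ from wild type before treatment. In uvr8-6 the log2 fold changes against wild type were -0.13 ± 0.24 for UGT78D1, -0.17 ± 0.14 for UGT78D2, -9.2e-05 ± 0.18 for UGT89C1 and 0.07 ± 0.11 for RHM1. The libraries overlapped for all 4 genes, where those of 6.67% of all genes did not. EdgeR called none of the 4, at an adjusted p of 0.9999 for each, where it called 0.0144% of all genes and none of the 4 had an unadjusted p under 0.05. The intervals bound any difference: for UGT78D1 -0.64 to 0.38, and for RHM1 -0.17 to 0.31.

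In pif4-101 pif5-1, UGT78D1 had 20.9, 20.7 and 23.5 CPM and UGT78D2 had 26.0, 22.5 and 23.4 CPM. UGT89C1 had 19.4, 16.2 and 17.8 CPM. All of these lie within or close to the range of the wild-type white-light libraries given above, and the log2 fold changes were -0.02 ± 0.24, 0.09 ± 0.13 and 0.01 ± 0.18. RHM1 had 89.9, 78.8 and 82.3 CPM, each below the lowest wild-type library at 90.7 CPM, and 11% of all genes were lower without overlap in this comparison. Its log2 fold change was -0.20 ± 0.11 with an interval of -0.44 to 0.04, and it was not called (edgeR adjusted p = 0.34). None of the 4 genes was called or had an unadjusted p under 0.05 here, where edgeR called 5.26% of all genes. The summed photosynthetic markers differ between these groups, as given above, though edgeR called none of the 5, with 3 at an unadjusted p under 0.05. Of 5 root markers, edgeR called 1 as lower in the double mutant. Summed root markers held 3238 to 6858 CPM there and 6022 to 8788 CPM in wild type in white light. The part of these markers in the levels of the 4 genes was not tested. Without the high-FRO5 library of wild type in white light and those of the other groups, the log2 fold changes were 0.20, 0.28, 0.22 and -0.09 for UGT78D1, UGT78D2, UGT89C1 and RHM1, and none was called. The 15 libraries hold no UV-B library of this genotype.

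Ordered by mean level over the 5 groups, wild type under UV-B came first for every member and uvr8-6 under UV-B second. The step between them was called for each gene, and no lower neighbours were. For UGT89C1 the second step, uvr8-6 under UV-B at 25.3 ± 4.3 CPM over pif4-101 pif5-1 at 17.8 ± 1.6 CPM, had an edgeR adjusted p of 0.065. For RHM1 the second step lay between the conditions in uvr8-6, at 141.5 ± 7.8 CPM under UV-B and 101 ± 9 CPM in white light. Between the lowest 3 groups, no step between neighbours was called by edgeR, and of these neighbours only pif4-101 pif5-1 and wild type in white light, for RHM1, had libraries that did not overlap.

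UGT78D1 and UGT78D2 act at the same position of the flavonol with different sugars, so the ratio of their reads within a library needs no scaling. In wild type the ratio of UGT78D1 to UGT78D2 was 0.901, 0.742 and 0.605 under UV-B, against 0.963, 1.01 and 0.951 in white light. Every treated library lay below every untreated one, with means of -0.43 ± 0.29 and -0.04 ± 0.05 on the log2 scale (SD, n = 3). The difference of -0.40 had an exact two-sided permutation p of 0.1, the smallest that 3 against 3 libraries allow, and 0.5 after adjustment over 5 comparisons of this ratio, so it cannot be called. In uvr8-6 the log2 ratio was -0.16 ± 0.29 under UV-B and -0.00 ± 0.17 in white light, and the libraries overlapped. The ratio was higher in each high-FRO5 library than in the other libraries of its group.

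**Figure D4:**
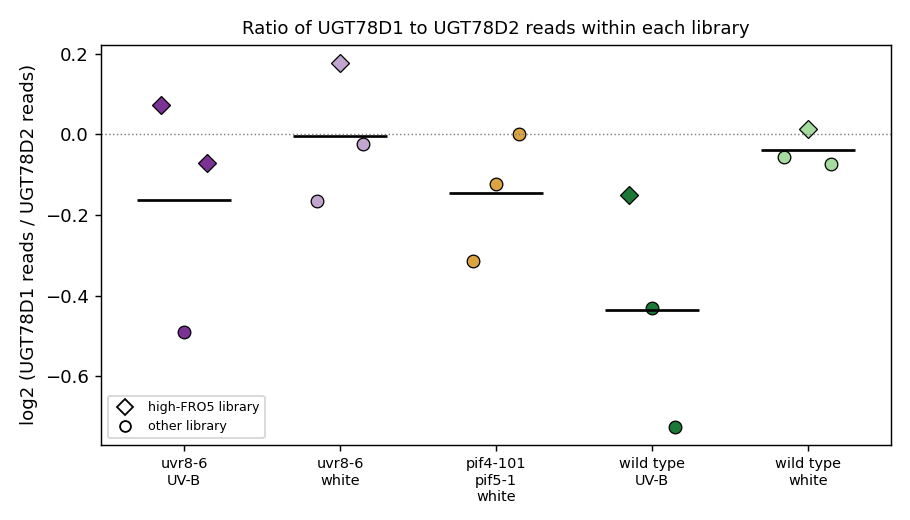
Log2 ratio of UGT78D1 to UGT78D2 reads in each library, by group; bars are group means, diamonds mark the high-FRO5 libraries and the dotted line marks equal counts. The wild-type UV-B libraries lie lowest on average, at -0.43, and spread from ratios of 0.605 to 0.901.

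The enzymes that make the flavonol rose with the genes that decorate it. Of 8 flavonol enzyme genes tested, 7 rose in wild type under UV-B and none fell, where 16.1% of all genes were called as higher. Their median log2 fold change was 4.58, against -0.01 over all genes tested. CHS, the chalcone synthase gene at the entry of the pathway, rose by 6.69 ± 0.67, the flavonol synthase gene FLS1 by 6.55 ± 0.64, and the flavanone hydroxylase gene F3H by 6.34 ± 0.34 on the log2 scale. The flavonoid 3′-hydroxylase gene (AT5G07990), whose enzyme leads to quercetin, rose by 4.76 ± 0.18. The 4 glycosylation genes had a median of 2.81 on that scale. FLS1 had 503 ± 82 CPM under UV-B and 5.48 ± 4.02 CPM in white light, and F3H 479 ± 28 and 5.99 ± 3.27 CPM (SD, n = 3). The exception was FLS3, a paralog of FLS1, at -0.45 ± 0.22 and not called. Without replicate 1 of wild type under UV-B, FLS3 was called as lower, at -0.74 ± 0.21 (edgeR adjusted p = 0.0208). In uvr8-6 edgeR called none of the 8, with 4 at an unadjusted p under 0.05 and F3H at 1.30 ± 0.30 (adjusted p = 0.0543). DESeq2, limma-voom and the fit without the high-FRO5 libraries called 1 of the 8 there. The difference of responses was called as lower in uvr8-6 for 6 of them, and for 4.88% of all genes.

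All 5 regulators of the list rose in wild type, where 16.1% of all genes were called as higher. EdgeR called none in uvr8-6, where 1, MYB12 at 0.60 ± 0.19, had an unadjusted p under 0.05. Without replicate 2 of uvr8-6 in white light, a high-FRO5 library, edgeR called MYB12 as higher in uvr8-6, at 0.87 ± 0.18 (adjusted p = 0.0435). In wild type MYB12, which activates flavonol genes, had 66.9, 61.8 and 73.0 CPM under UV-B, against 3.81, 3.53 and 2.83 CPM in white light. Its log2 fold change was 4.32 ± 0.19, and those of MYB111, HY5 and HYH were 3.08 ± 0.46, 1.99 ± 0.14 and 1.65 ± 0.24. MYB11 had 24 to 56 reads per library under UV-B and 0 or 1 in white light. The difference of responses was called for all 5, and for 6.6% of all genes. It was called for 2 or 3 of the 5 when certain single libraries of wild type or uvr8-6 were left out. The calls lost in such runs were those of MYB11, MYB111 and HYH. MYB11 also lost its call without the high-FRO5 libraries (adjusted p = 0.241), with the replicate block (0.0510), with upper quartile scaling (0.0520) and in the compared libraries alone (0.0539). The differences of MYB12 and HY5, -3.72 ± 0.26 and -1.92 ± 0.20, kept their calls in each of these runs.

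Of 8 other flavonoid glycosyltransferase genes tested, 7 rose in wild type and none fell, where 16.1% of all genes were called as higher. Their median log2 fold change was 2.11. AT5G17040, the neighbour of UGT78D2, had 328, 331 and 321 reads under UV-B, against 4, 7 and 4 in white light, and a log2 fold change of 5.96 ± 0.39. UGT78D3, the next gene in the row and known as a flavonol arabinosyltransferase gene, had too few reads to be tested, with 29, 9 and 18 under UV-B and 0 in each white-light library, where a count of 0 allows up to 3 reads. In uvr8-6, AT5G17040 had 18, 5 and 11 reads under UV-B and 7, 8 and 6 in white light, and UGT78D3 had 1 read in each condition. AT4G27560 and UGT73C6, a flavonol 7-O-glucosyltransferase gene, rose by 3.43 ± 0.25 and 2.64 ± 0.35 on the log2 scale in wild type. UGT79B1, whose enzyme adds xylose to anthocyanins, rose by 2.19 ± 0.75, and AT4G14090 by 2.03 ± 0.64. Those 2 calls are lost without the high-FRO5 libraries, at 1.97 ± 0.97 and 1.43 ± 0.69, and in the compared libraries alone (edgeR adjusted p = 0.0534 and 0.0687). They are also lost without replicate 1 of wild type under UV-B and without replicate 1 or 3 of wild type in white light. The replicate block, or leaving out replicate 3 of wild type under UV-B, loses that of UGT79B1, and limma-voom loses that of AT4G14090. AT4G27570, the neighbour of AT4G27560, missed the threshold at 1.94 ± 0.70 (adjusted p = 0.0521) and was called without the high-FRO5 libraries, at 3.43 ± 0.90. The difference of responses was called for 4 of the 8, AT5G17040, AT4G27560, UGT73C6 and BGLU6, and for 6.6% of all genes. It was called for 2 of the 8 when certain single libraries were left out. Without the high-FRO5 libraries the call of BGLU6 was lost (adjusted p = 0.0618). The gene BGLU10, annotated as a beta-glucosidase, was the single one of these genes called in uvr8-6, at 0.60 ± 0.12 (edgeR adjusted p = 0.033). That call is lost in the compared libraries alone (edgeR adjusted p = 0.102). It is also lost when any single uvr8-6 library except replicate 1 under UV-B is left out. Without the high-FRO5 libraries the call was not kept either, at a log2 fold change of BGLU10 of 0.78 ± 0.17. That fit leaves 1 library in the uvr8-6 UV-B group.

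The other genes of sugar donor supply differed from RHM1. RHM2 and RHM3 encode the other UDP-rhamnose synthases, and UER1 encodes a bifunctional enzyme of the last steps to UDP-rhamnose. RHM2 had 73.1 ± 3.7 CPM under UV-B and 80.2 ± 1.8 CPM in white light in wild type, RHM3 42.9 ± 0.7 and 40.0 ± 5.7 CPM, and UER1 78.8 ± 9.1 and 79.0 ± 5.5 CPM (SD, n = 3). Their log2 fold changes were -0.13 ± 0.08, 0.10 ± 0.12 and -0.00 ± 0.10, and edgeR called none of them. The libraries of RHM2 were lower under UV-B without overlap, and upper quartile scaling, which moves the median of all genes to -0.11, called it as lower at -0.24. Of the 6 genes of UDP-rhamnose and UDP-glucose synthesis on the list, only UGP2, a UDP-glucose pyrophosphorylase gene, rose, where 16.1% of all genes were called as higher. UGP2 had 118, 123 and 138 CPM under UV-B, against 58.4, 60.1 and 61.2 CPM in white light, a log2 fold change of 1.08 ± 0.10 (edgeR adjusted p = 1.8e-06). In uvr8-6, UGP2 had 72.9 ± 7.7 CPM under UV-B and 59.2 ± 0.04 CPM in white light, and the responses differed by -0.78 ± 0.14 (adjusted p = 0.0029). RHM2 was lower in pif4-101 pif5-1 than in wild type, at -0.32 ± 0.08 (edgeR adjusted p = 0.031), a call lost when any single library of these 2 groups was left out.

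UDP-rhamnose also enters the Golgi for cell wall pectin. Of 6 genes of UDP-rhamnose Golgi transporters, 3 fell in wild type under UV-B and none rose, where 11.3% of all genes were called as lower, with log2 fold changes of -0.53 ± 0.14 for URGT2, -0.47 ± 0.09 for URGT3 and -0.43 ± 0.14 for URGT4. Without the high-FRO5 libraries, or without replicate 1 of wild type in white light, the call of URGT3 alone was kept. The call of URGT4 was also lost with limma-voom (adjusted p = 0.0508) and in the compared libraries alone (edgeR adjusted p = 0.0553). Leaving out replicate 2 or 3 of wild type under UV-B, or replicate 2 of wild type in white light, lost it as well. None of the transporter genes was called in uvr8-6 by edgeR, and none had an unadjusted p under 0.05 there. The difference of responses was not called in the main edgeR fit for any transporter gene, with 2 at an unadjusted p under 0.05, and DESeq2 called 1, URGT3. EdgeR also called URGT3 with upper quartile scaling (adjusted p = 0.0276) and with the filter on CPM (0.0483). The same held without replicate 2 of uvr8-6 under UV-B (0.0264). Of 3 anthocyanin enzyme genes tested, GSTF12, whose product is needed for anthocyanin deposition in the vacuole, rose by 4.43 ± 0.51. DFR and LDOX, the enzyme genes that lead to anthocyanidins, had log2 fold changes of 1.62 ± 0.72 and 1.76 ± 0.66 and were not called by edgeR. DESeq2 called 2 of the 3, and without replicate 2 of wild type under UV-B all 3 were called.

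**Figure D5:**
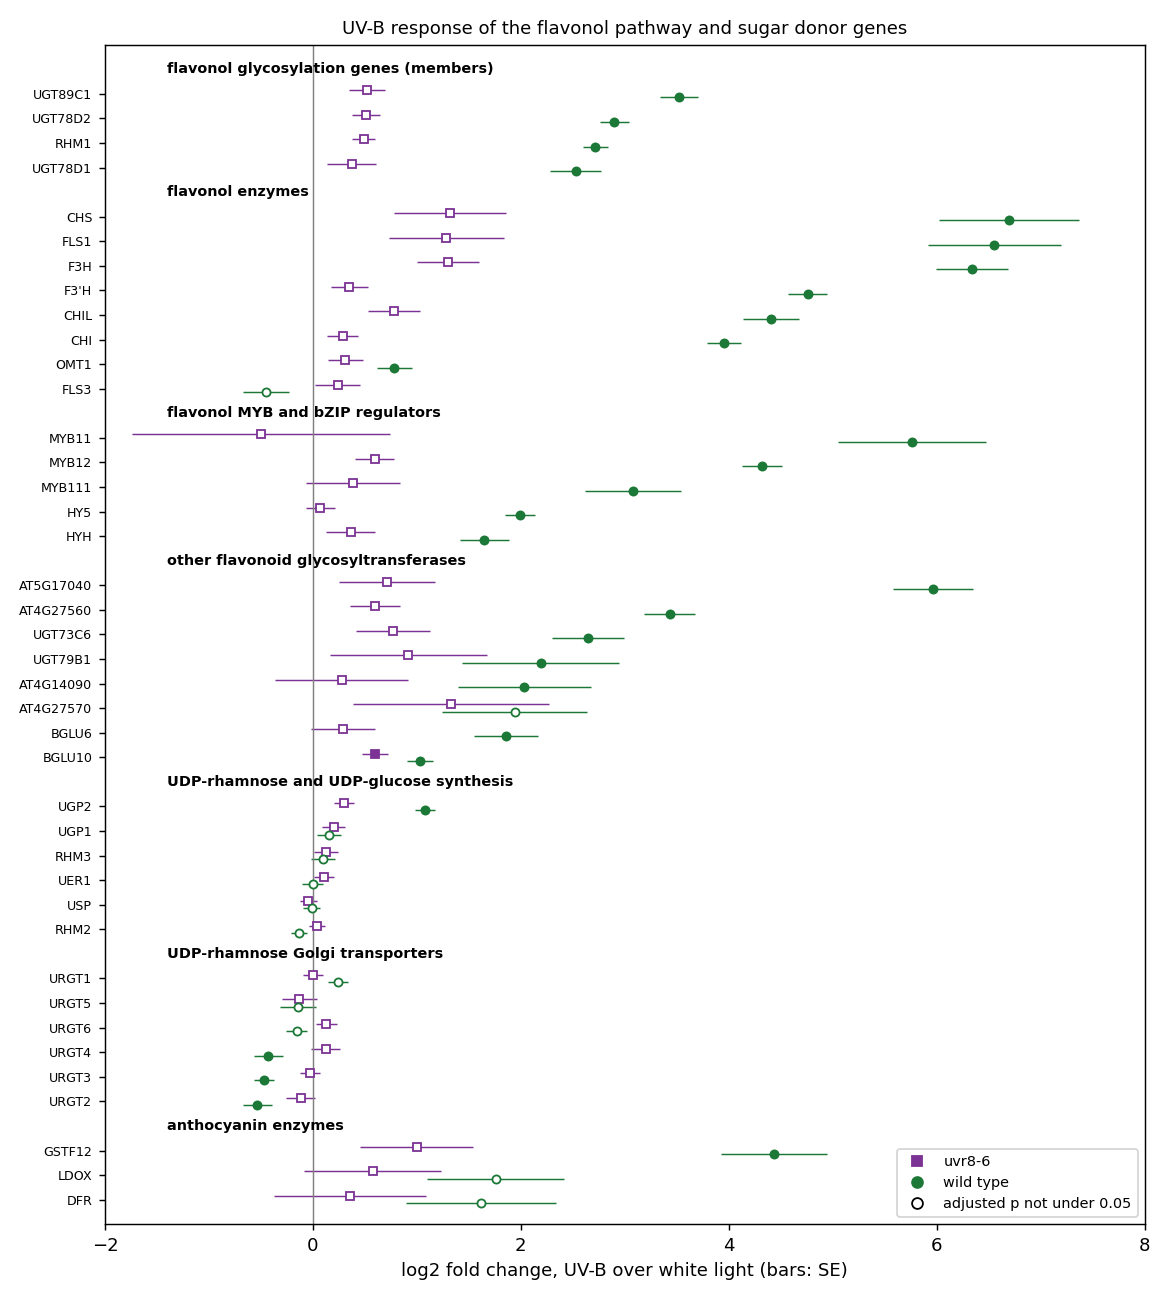
Log2 fold change of UV-B over white light for the 4 genes and the listed pathway genes, in uvr8-6 (squares) and wild type (circles), with standard errors as bars; open symbols are not called. RHM1 at 2.71 in wild type stands apart from RHM2, RHM3 and UER1, which lie between -0.13 and 0.10.

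The genes with the most similar pattern were found by the root mean square difference of mean-centred log2 CPM over the 15 libraries, among all genes tested. This measure is driven by the wild-type UV-B libraries and has no test. For UGT78D1 they were ABCI20 (0.189), CRY3 (0.200) and ABCI21 (0.210), and for UGT78D2 ABCI20 (0.175), AT1G57770 (0.186) and AT5G22020 (0.192). For RHM1 they were ABCI20 (0.182), AT5G22020 (0.196) and SEP2 (0.205). ABCI20 and ABCI21 encode ABC proteins, CRY3 a cryptochrome of the photolyase family, and SEP2 a stress-enhanced protein. UGT89C1 was nearest to UGT84A2, which encodes a sinapate glucosyltransferase of the other class of UV-B-absorbing phenylpropanoids, at 0.156, and then to UGT78D2 (0.245) and AT1G57770 (0.259). Between the 4 genes the measure ran from 0.227 for UGT78D2 and RHM1 to 0.391 for UGT78D1 and UGT89C1. UGT84A2 had a log2 fold change of 3.69 ± 0.13 in wild type and 0.27 ± 0.12 in uvr8-6, beside 3.52 and 0.52 for UGT89C1, and ABCI20 had 2.63 ± 0.16 and 0.44 ± 0.16. AT1G57770, annotated as a carotenoid isomerase, was the single one of these neighbours called in uvr8-6 by edgeR, at 0.92 ± 0.19 (adjusted p = 0.033).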

How the data were processed

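Libraries were made from 400 ng of total RNA with a stranded mRNA kit and read as 100 bp single ends, per the labels. Tools listed by the submitters' processing notes, without roles, are edgeR 3.22.3, the counter HTSeq 0.9.1, the aligner STAR 2.5.3a and FastQC 0.11.5, with the build TAIR10. The deposited table holds raw counts per gene and library, neither scaled nor pooled by the authors, and it holds no coordinates. A second deposited table of normalized values was not used. Groups came from the sample titles.

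Genes were kept by filterByExpr on the 5 groups, scaled by TMM (factors 0.863 to 1.11), and fitted in 1 model of all 15 libraries with edgeR 4.0.16 in R 4.3.3 (10 residual degrees of freedom). Tests were two-sided quasi-likelihood F tests adjusted by Benjamini-Hochberg over all 20833 genes, called under 0.05. Log2 fold changes carry standard errors, intervals are 95%, and levels are means ± SD. A count of 0 is bounded by 3 reads, and this covers counting error alone. The edgeR fit was tested on simulated counts with known fold changes. Log2 CPM for pattern comparison used a prior count of 2.

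The members and lists were chosen with earlier results of these data known. Named by rule were the 4 members, UGT78D3, AT5G17040, RHM2, RHM3, UER1, up to 4 genes per list with the largest wild-type response, the 3 nearest genes by pattern, and the targeted genes. FLS3, HYH, BGLU6, BGLU10, AT4G14090, AT4G27570, FRO5, AT1G06002 and AT1G78580 were named after their values were seen. Names came from the RefSeq table, in which 32835 genes matched. Sequences and coordinates come from RefSeq's TAIR10.1, whose annotation may differ from the one used for counting. Exact matches elsewhere in the genome were searched with blastn 2.17.0, without gaps and dropping any alignment with a mismatch.

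Alternatives were RLE and upper quartile scaling, no filter, a filter of CPM above 1 in 3 libraries, DESeq2 1.42.0, limma-voom (limma 3.58.1), a block for the replicate number, a fit of the compared libraries alone, the 5 high-FRO5 libraries left out, and each library left out. Deviations from group means of same-numbered libraries correlated at 0.33, 0.60 and 0.39 between the white-light libraries of uvr8-6 and wild type. The labels name no shared batch. Replicate 2 is the high-FRO5 library of both groups, so within these 2 groups a pairing by number and this shared state cannot be told apart. With the block for the replicate number no member was called between these groups, as without it. Between the white-light libraries of wild type and the double mutant the values were 0.08, 0.19 and 0.17. For uvr8-6 and the double mutant in white light they were 0.16, 0.19 and 0.14. In each pair of white-light groups, all same-numbered values lay above those of libraries with different numbers. That did not hold in any other pair of groups. With the block, no member was called between wild type and the double mutant either. The source of these correlations was not tested.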

Additional observations from a re-analysis of the deposited data

Results flagged for a closer look

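For each of the 4 genes the response to UV-B differed between the genotypes by a test of the difference itself, in edgeR's quasi-likelihood fit of all libraries. As uvr8-6 minus wild type on the log2 scale, the differences were -2.16 for UGT78D1, -2.39 for UGT78D2, -3.00 for UGT89C1 and -2.23 for RHM1. In the 21 alternatives run for each gene the difference kept its sign and its call, with ranges of -2.47 to -1.89, -2.59 to -2.25, -3.20 to -2.82 and -2.30 to -2.11. Outlying values within a group were not tested by a rule on gaps, since each group holds 3 libraries.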

How the results depend on the processing

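The calls of the 4 genes in wild type, in the difference of responses and between the genotypes, and their absence in white light, kept their side of the threshold in all alternatives run, and no log2 fold change of a called gene reversed. The UV-B response of uvr8-6 did not: with 0 genes called in the fit described above, DESeq2 called 2 (RHM1 and UGT78D2), and limma-voom, the filter on CPM and the replicate block called 1 each (RHM1, adjusted p = 0.0389, 0.0478 and 0.0439). Leaving out 1 library gave 0 to 2, the 2 coming without replicate 2 of uvr8-6 under UV-B (UGT78D2 at 0.0423 and RHM1 at 0.0432). The replicate block changed no other call of the 4 genes. Same-numbered libraries did not deviate together in these groups (0.01, -0.28 and -0.22 in uvr8-6).

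Counts over all genes moved more. In uvr8-6, 233 genes were called between UV-B and white light, 640 with DESeq2, 367 with the replicate block and 43 to 393 with 1 library left out. Between pif4-101 pif5-1 and wild type the count was 1095, 1798 with DESeq2, 278 in the compared libraries alone and 335 to 1459 with 1 library left out. The difference of responses gave 1375 calls, 907 without the high-FRO5 libraries and 877 without replicate 3 of uvr8-6 in white light, and uvr8-6 against wild type under UV-B 4903 and 3053 without the high-FRO5 libraries. In white light uvr8-6 differed from wild type in 3 genes, and in 6 with DESeq2 or without the high-FRO5 libraries. Upper quartile scaling moved the median of all genes in the wild-type response to -0.11, against -0.01, and turned the share of calls that were higher to 40.7%, against 58.8%. The causes were not tested. An AC element stood before 1 gene in the window of 250 bases and before 3 in that of 500 bases. Depth limits UGT78D3 and MYB11, whose untreated counts are at or near 0.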
